A study of Mus musculus with 2 samples.

Results

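Antiviral effector genes that interferon is known to induce were compared between E2A-deficient mouse haematopoietic progenitors carrying E47ER and those carrying bHLHER. The group was chosen by name, as Isg15, Isg20, Usp18, Gbp3, Ifit1, Ifit2, Ifit3, Mx1, Rsad2 and Oas1a, in so far as each had a named probe. Of these 10 genes, 9 had a named probe, each with 1 probe and a value on both arrays, among 10208 named genes in all. Mx1 lacked a named probe and is not analysed here. Both arms lack E2A (Tcf3), the gene from which the transcription factor E47 is made. In an ER fusion a protein is joined to the ligand-binding domain of an oestrogen receptor and stays inactive until 4-hydroxytamoxifen is added. By its name, bHLHER carries the basic helix-loop-helix region, the part of the protein that pairs and binds DNA, in place of whole E47. Cells were infected, left for 48 h and given 4-hydroxytamoxifen for 6 h, and total RNA labelled with Cy5 was read on 1 CodeLink mouse array per arm. The design text names this treatment for both arms, while the source label names the infection for the E47ER sample only. There was no replicate and no uninfected or untreated array, so no value has a replicate check, no p-value is given, and a gene higher with E47ER may have gone up in that arm or down in the other. Tcf3 had no named probe, so the labels could not be checked against it.

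Interferons are secreted proteins that bind receptors on the cell surface. The receptor-bound kinases Jak1 and Tyk2 then activate Stat2, which with Irf9 enters the nucleus as part of a complex that binds a DNA sequence called the interferon-stimulated response element. Interferon regulatory factors, the IRF proteins, bind related sequences, so antiviral genes can be transcribed through either route. The products act at different steps. Isg15 is a ubiquitin-like protein attached to other proteins, and Usp18 removes it and also blocks the interferon receptor. Ifit1, Ifit2 and Ifit3 are tetratricopeptide repeat proteins, of which Ifit1 binds foreign RNA ends. Oas1a belongs to the enzymes that sense double-stranded RNA and make short chains of adenylate as a signal. Isg20 is a 3′ to 5′ exonuclease, Rsad2 (viperin) makes a chain-terminating nucleotide, as known from the human enzyme, and Gbp3 belongs to the guanylate-binding GTPases, which act on vacuoles holding pathogens.

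Promoter sequences are shown to let the response element be seen in members that differed in level between the arrays and in members that stayed dim on both. They come from RefSeq on GRCm38.p6, where 8 of the 9 members had an entry in 12 windows, each window running from 250 bases before to 50 bases after an annotated start. Usp18 had no entry. Each line gives the 250 bases before the most upstream start, 5′ to 3′ on the gene's strand. Capitals mark the core of the response element, searched as GAAA, any 2 bases and GAAA again, and CANNTG, the E-box that E proteins are known to bind, each on both strands. Adjoining matches of the core overlap and run together.
Isg20, chr7:78913174-78913423, plus strand: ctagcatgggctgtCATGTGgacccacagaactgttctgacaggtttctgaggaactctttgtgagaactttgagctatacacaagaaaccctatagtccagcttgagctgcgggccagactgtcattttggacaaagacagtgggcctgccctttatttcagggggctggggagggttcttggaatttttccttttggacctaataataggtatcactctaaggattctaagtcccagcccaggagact
Gbp3, chr3:142559794-142560043, plus strand: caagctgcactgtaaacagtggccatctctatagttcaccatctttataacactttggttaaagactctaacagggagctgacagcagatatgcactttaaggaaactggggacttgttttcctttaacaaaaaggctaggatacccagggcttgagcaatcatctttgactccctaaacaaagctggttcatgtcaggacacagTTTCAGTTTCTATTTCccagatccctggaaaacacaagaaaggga
Isg15, chr4:156200819-156201068, minus strand: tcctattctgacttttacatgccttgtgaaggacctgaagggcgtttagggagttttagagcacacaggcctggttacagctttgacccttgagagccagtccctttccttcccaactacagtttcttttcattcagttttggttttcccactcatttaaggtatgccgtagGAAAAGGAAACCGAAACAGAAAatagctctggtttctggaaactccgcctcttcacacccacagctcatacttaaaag
Oas1a, chr5:120907526-120907775, minus strand: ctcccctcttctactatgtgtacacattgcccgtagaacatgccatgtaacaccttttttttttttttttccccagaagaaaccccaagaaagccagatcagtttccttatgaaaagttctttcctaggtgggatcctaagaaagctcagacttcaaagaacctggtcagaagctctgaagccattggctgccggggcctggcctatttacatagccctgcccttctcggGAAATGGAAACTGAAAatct
Ifit1, chr19:34640639-34640888, plus strand: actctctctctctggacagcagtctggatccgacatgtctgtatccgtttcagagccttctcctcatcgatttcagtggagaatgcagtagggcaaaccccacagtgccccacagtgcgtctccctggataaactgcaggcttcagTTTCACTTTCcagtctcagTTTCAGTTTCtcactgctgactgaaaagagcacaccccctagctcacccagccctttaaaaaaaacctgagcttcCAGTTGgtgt

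The response element core was present in 6 of the 8 members with a promoter entry, namely Isg15, Gbp3, Ifit1, Ifit3, Rsad2 and Oas1a. Across RefSeq it lay in 3.44% of 32851 windows and in 3.99% of 27025 genes. Isg15 had 3 overlapping matches, beginning 78, 72 and 66 bases before the start. In Gbp3 a pair of overlapping matches on the opposite strand began 45 and 39 bases before the start. Oas1a had a pair as well, 20 and 14 bases before its start. In Gbp3 and Oas1a the matches joined into 3 GAAA repeats, each 2 bases apart, and in Isg15 into 4. A run of at least 3 was found in 0.133% of genes. Ifit1 and Ifit3 each had 2 separate matches, and Rsad2 had 1. Neither the 3 windows of Isg20 nor the 2 windows of Ifit2 held these letters. The E-box was in 6 of the 8 genes, against 75% of all genes. In Isg20, CATGTG lay 236 bases before the most upstream start, and CAGGTG lay 195 and 46 bases before the start furthest downstream. The window of Gbp3 that held the response element held no E-box, and neither did those of Isg15 and Oas1a. A match of letters is a description of the sequence and not a measured binding site.

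Levels were read against the median of all probes on the same array, which was 0.957 for E47ER and 0.953 for bHLHER, on the deposited linear intensity scale. The median is a working floor and no detection call. Each probe has its own efficiency, so intensities of different probes do not rank transcripts by amount. Where probes are ordered or summed by intensity, this describes brightness alone. A gene above the median on both arrays is called measured on both arrays, and a difference of at least 2-fold between the arrays (a log2 ratio of 1) is called higher or lower. The threshold is one of size alone. Of the 9 antiviral genes, 2 were measured on both arrays, 1 was above the median with E47ER only, and 6 were below it on both. Among all genes with a value, 54.6% were measured on both arrays and 42% were below the median on both.

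Isg20, Gbp3 and Usp18 were the members with a higher level in E47ER cells by this threshold, and none of the 9 passed it in the other direction. Both members measured on both arrays were called higher, where 2.31% of the 5534 genes so measured were and 0.813% were called lower. The members were chosen with earlier results of these data known, so this contrast is a description only. Isg20, the exonuclease gene, gave 3.57 on the E47ER array and 1.26 on the bHLHER array. This put it at 3.73 times the array median in the E47ER arm and at 1.32 times in the bHLHER arm. The log2 ratio was 1.503, a 2.83-fold higher level with E47ER, at rank 56 of the 5534 genes. Gbp3, the guanylate-binding protein gene, was read at 2.85 with E47ER and 1.28 with bHLHER. It was thus at 2.98 times the median in one arm and 1.34 times in the other. Its log2 ratio of 1.16 was a 2.23-fold higher level, at rank 105. On the bHLHER array both genes lay just inside the floor, so the sizes of their folds rest on dim values. Both were in the dimmest 25% of measured genes by mean intensity, where 1.59% of 1384 genes were called higher and 0.578% lower.

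Usp18, the protease that takes Isg15 off its targets, gave 2.56 on the E47ER array and 0.835 on the bHLHER array. It lay at 2.67 times the median in the first case and at 0.876 times in the second, just outside the floor. With the median of the bHLHER array in place of its own value there, it was at least 2.69-fold higher with E47ER. Of the 180 genes above the median with E47ER only, 19.4% were at least 2-fold higher by such a bound, and Usp18 ranked 22 among them. A gene that enters through the E47ER array alone can only be higher there, so this share carries no direction. Of the 171 genes above the median with bHLHER only, 2.92% were at least 2-fold lower by their bound, and none of these was an antiviral member.

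**Figure D1:**
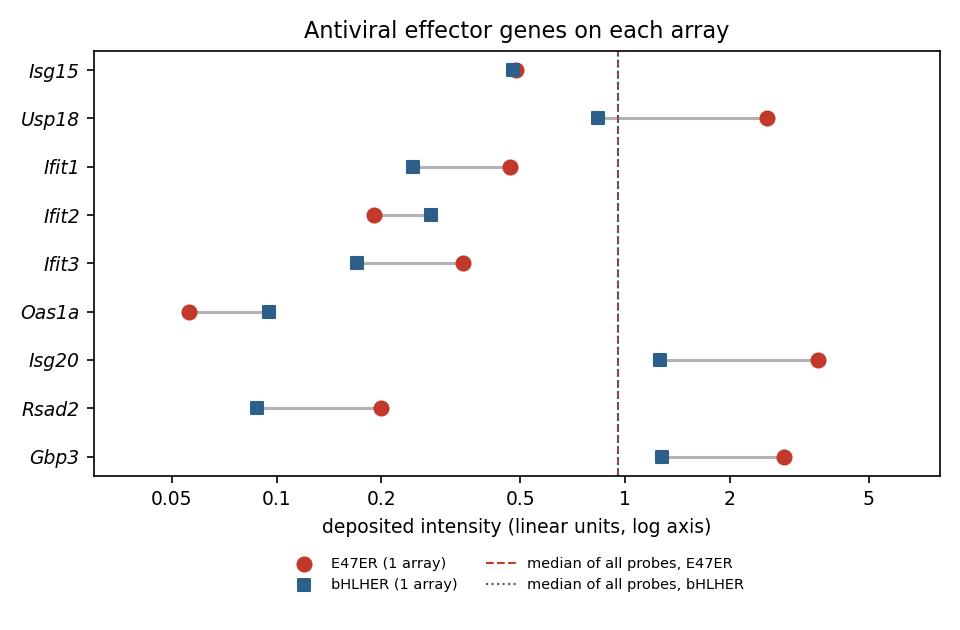
Deposited intensity (linear units on a log axis) of the 9 antiviral genes with a named probe, as a circle for the E47ER array and a square for the bHLHER array, with dashed and dotted lines at the median of all probes on each. Isg20 and Gbp3 lie to the right of both medians on both arrays, Usp18 straddles them, and the other 6 genes lie to the left.

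The ubiquitin-like modifier Isg15 was nearly level, at 0.487 with E47ER and 0.478 with bHLHER. These are 50.9% and 50.2% of the array medians. The protease of this system was therefore higher in the E47ER arm, while its substrate was below the median in both arms and had no fold to give. Among the enzymes that attach Isg15, the activating enzyme gene Uba7 was above the median with E47ER only (1.18 against 0.833) and at least 1.24-fold higher. The conjugating enzyme gene Ube2l6 was below the median on both arrays, at 0.248 and 0.179. The list of this system is not limited to enzymes that attach Isg15. Also in it, Ube2e1 (40.7 against 41.1) and Usp5 had log2 ratios of -0.02 and -0.25.

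The 3 genes of tetratricopeptide repeat proteins were dim on both arrays. Ifit1 was read at 0.469 with E47ER and 0.246 with bHLHER, which are 49.0% and 25.8% of the medians. Ifit2 was read at 0.190 and 0.277, the E47ER array being the lower one. Ifit3 was read at 0.343 and 0.171. The brighter array was not the same one for all 3 genes, but at this brightness no direction can be read from that. No fold is given for them, because dim probes scatter widely. Among 4216 genes below the median on both arrays with values above 0, the central 95% of log2 ratios ran from -1.67 to 1.89, and 14.9% were past 2-fold in either direction. For genes measured on both arrays the central 95% ran from -0.79 to 0.96.

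Rsad2, the viperin gene, was read at 0.199 with E47ER and 0.0878 with bHLHER, or 20.8% and 9.21% of the medians. Oas1a, the synthetase gene, was read at 0.0559 and 0.0955, or 5.84% and 10.02% of the medians. Both were far below the floor, with Rsad2 lower on the bHLHER array and Oas1a lower on the E47ER array. Over the 6 members below the floor, the E47ER array was the brighter one for Isg15, Ifit1, Ifit3 and Rsad2 and the dimmer one for Ifit2 and Oas1a. These are readings only, and no direction is called for any of the 6. At this brightness a level below the median is not shown to be absence of the transcript.

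The relatives of each member were examined in the same way. In the family of Gbp3, which here includes the immunity-related GTPases, 12 of 17 genes had a named probe and 3 were measured on both arrays, none past 2-fold. These were Ifi47 (27.8 against 14.8, log2 ratio 0.91), Irgm1 (14.0 against 7.66, log2 ratio 0.87) and Gbp7 (5.87 against 4.61, log2 ratio 0.35). Tgtp1 and Igtp were above the median with E47ER only, at least 1.94- and 1.31-fold higher, and the remaining 7, among them Gbp2, Gbp4 and Gbp5, were below it on both. In the family of Oas1a, 2 of 8 genes with a named probe were measured on both arrays, with Oas1c (2.27 against 2.29) at a log2 ratio of -0.02 and Oas3 (1.91 against 1.68) at 0.18. Oasl2 was above the median with E47ER only, at 0.993 against 0.318, and at least 1.04-fold higher. Among exonuclease relatives of Isg20, Eri3 (18.01 against 17.5), Eri1 and Aen had log2 ratios of 0.04, 0.29 and -0.27. None of the 8 relatives measured on both arrays was past 2-fold. The genes above the median with E47ER only have lower bounds alone, so their true folds may be larger, and none of this shows that the members differ from their families.

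**Figure D2:**
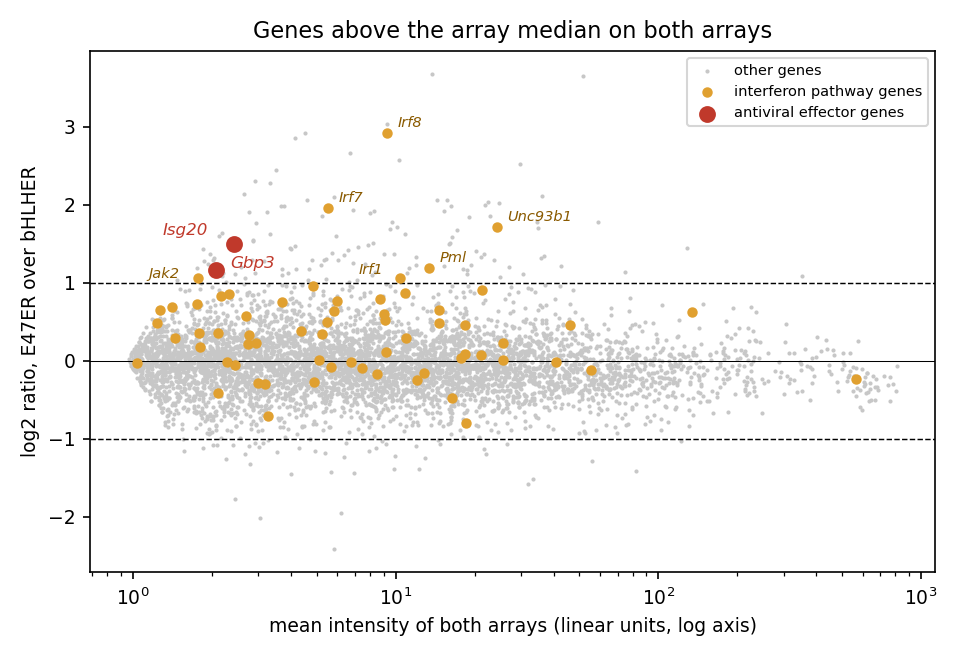
Log2 ratio of E47ER over bHLHER against mean intensity (log axis) for the 5534 genes above the median on both arrays, with dashed lines at 2-fold. Isg20 and Gbp3 are large red points at 1.503 and 1.16 in the dim part of the range, and interferon pathway genes are orange, with those past 2-fold named.

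The rest of the interferon pathway gives the setting of these values. Over 12 lists of the pathway's ligands, receptors, signalling proteins and other antiviral genes, 103 of 161 genes had a named probe and 64 were measured on both arrays. Of these 64, 6 were at least 2-fold higher with E47ER (9.38%, against 2.31% of all genes), none was at least 2-fold lower, and 58 lay between. Their median log2 ratio was 0.34, and that of all measured genes was -0.05. For 13 marker genes of leukocytes in general (pan-leukocyte genes, described below) the median was higher, at 0.48, and 3 of them were at least 2-fold higher. The lists were chosen with earlier results of these data known, so these values are descriptions only. A further 35 pathway genes were below the median on both arrays.

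The ligands were below the median throughout. All 6 interferon genes with a named probe were, Ifnb1 among them, with intensities from 0.127 to 0.954 on the E47ER array and from 0.139 to 0.840 on the bHLHER array. Ifna7, the brightest of them, was read at 0.954 and 0.840. The 5 receptor genes with a named probe were measured on both arrays and none was past 2-fold. Ifnar1 (17.9 against 11.4) and Ifnar2 (1.55 against 0.982), the chains of the type I receptor, had log2 ratios of 0.65 and 0.66, and Il10rb had 0.50. Ifngr1 and Ifngr2, the chains of the interferon gamma receptor, had -0.30 and -0.71. In the signalling list Jak2 was 2.08-fold higher (2.39 against 1.15), but its log2 ratio was under the threshold with a pseudocount (0.94) and with centring on pan-leukocyte genes (0.57). Jak1 (25.8 against 25.5), Tyk2 and Stat2 had log2 ratios of 0.01, 0.52 and 0.73, and Irf9 (3.001 against 1.65) had 0.86.

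Among interferon regulatory factors, 3 of 6 measured genes passed the threshold on the higher side. Irf8, a factor of dendritic cells, monocytes and B cells, was 7.55-fold higher. Irf7, an inducer of interferon genes that is itself interferon-stimulated, was 3.90-fold higher, and Irf1 2.08-fold, though Irf1 was under the threshold with that centring (0.57). None of 7 measured inhibitors of signalling was past 2-fold, and 4 of the 7 had a ratio above 0, with a median of 0.48. Ptpn11, Cish, Ptpn1 and Ptpn6 had log2 ratios of 0.75, 0.69, 0.63 and 0.48, while Ptpn2 (13.6 against 23.5), Socs1 (2.70 against 3.29) and Pias1 had -0.79, -0.28 and -0.16. Of 11 measured sensors and adaptors, Unc93b1, which carries nucleic acid-sensing Toll-like receptors to endosomes, was 3.28-fold higher (37.1 against 11.3). Ddx58, the RNA sensor RIG-I, had a log2 ratio of 0.60 (10.9 against 7.16), and Eif2ak2, the RNA-activated kinase PKR, was below the median on both arrays. Ifi204 and Ikbke had -0.48 and -0.41, and over the 11 genes 6 ratios were above 0 and 5 below, with a median of 0.11. Of 21 other antiviral genes measured on both arrays, Pml, which builds nuclear bodies, was 2.27-fold higher (18.7 against 8.23), a log2 ratio that was 0.70 with the centring. Of the same 21 genes, 17 had a ratio above 0 and the median was 0.38. Named probes were lacking for Bst2 and Ifih1, which are not analysed here.

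**Figure D3:**
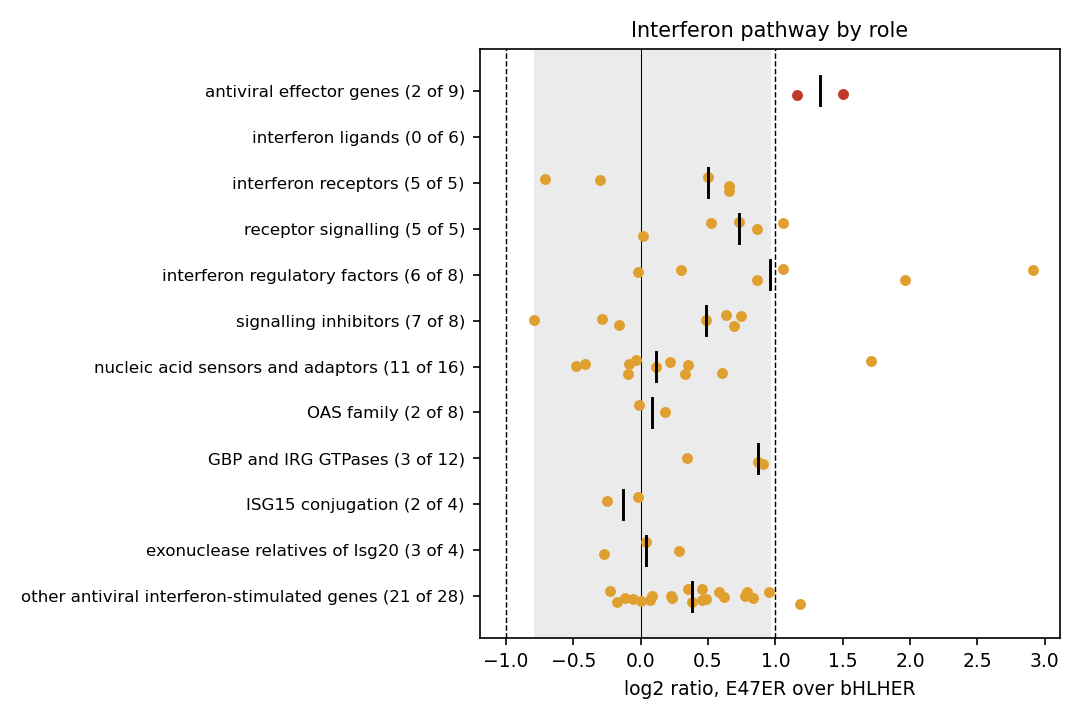
Log2 ratio of E47ER over bHLHER for genes measured on both arrays, by role, with a black bar at each list's median, dashed lines at 2-fold and a grey band over the central 95% of all measured genes (-0.79 to 0.96). Numbers in brackets are the genes measured on both arrays out of those with a named probe, and the 2 antiviral effector genes lie to the right of the 2-fold line.

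Cell type markers also differed between the arrays. Of 13 pan-leukocyte genes with a named probe, all 13 were measured on both arrays, 3 were at least 2-fold higher with E47ER and 10 had a ratio above 0. Their summed intensity was 430.5 with E47ER and 289.8 with bHLHER. Such a sum runs over all named probes of a list. It is led by the brightest of them and is no measure of cell number. Of 13 stromal and fibroblast genes with a named probe, 9 were measured on both arrays, 3 were at least 2-fold lower with E47ER and 8 had a ratio below 0. Their summed intensity was 61.3 and 85.4. The progenitor list had a named probe for 6 of its 10 genes. Kit, Flt3, Meis1, Hoxa9 and Lmo2 were all above the median on both arrays, while Gata2 was below it on both. As 54.6% of all genes with a value were above it on both, this does not check the progenitor label. Of the progenitor genes none was past 2-fold, and their summed intensity was 36.1 with E47ER and 51.0 with bHLHER. The summed intensity of conventional dendritic cell genes was 146 and 136, of which Cst3 gave 121 and 120. Of their 4 measured members Itgax was 3.70-fold higher, while Clec9a, Cst3 and Xcr1 had log2 ratios of 0.28, 0.01 and -0.01. That of plasmacytoid dendritic cell genes was 67.5 and 43.1, where Cox6a2 was past 2-fold (51.1 against 20.5, log2 ratio 1.32) and Tcf4, the other measured member, had a log2 ratio of -0.57. In the other 7 marker lists 3 genes were past 2-fold. Lat of the T cell list was 4.95-fold higher (4.84 against 0.977), with summed intensities of 7.70 and 3.53 for the list. Marco of the macrophage and monocyte list was 4.86-fold higher (sums of 14.8 and 14.2), and Mmp8 of the granulocyte list was 2.73-fold lower (sums of 9.18 and 13.7). On the bHLHER array Lat and Marco lay at 1.03 and 1.20 times the median, so the sizes of their folds rest on dim values. No B cell, natural killer cell, erythroid or mast cell marker measured on both arrays was past 2-fold. Of all these markers with a named probe, Klrb1c, a natural killer cell gene, was the 1 at or below 0, on the bHLHER array. The part of cell make-up in the levels of Isg20, Gbp3 and Usp18 was not tested, and in bulk RNA fewer cells of a type and less RNA per cell cannot be told apart. When log2 ratios were centred on the median of the pan-leukocyte genes, 0.48, Isg20 stood at 1.02 and Gbp3 at 0.67, and the bound of Usp18 was 1.92-fold. Gbp3 and Usp18 were then below the 2-fold threshold.

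**Figure D4:**
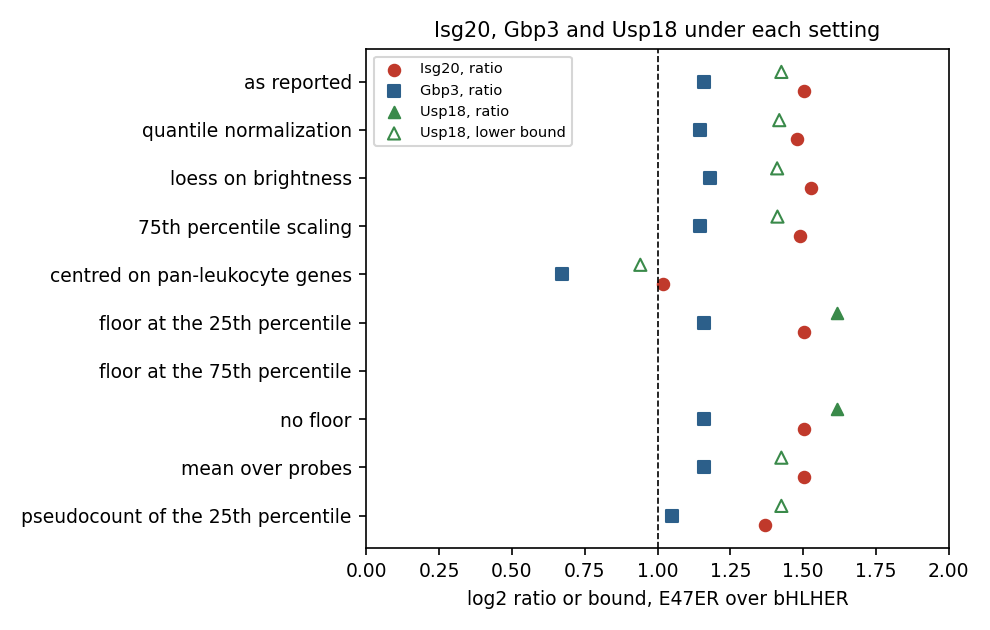
Log2 ratio of E47ER over bHLHER for Isg20 and Gbp3, and log2 ratio (filled) or lower bound (open) for Usp18, as reported and under each other setting, with a dashed line at 2-fold. Gbp3 and Usp18 fall below the line with centring on pan-leukocyte genes, and no point is drawn with a floor at the 75th percentile, where all 9 genes were below the floor on both arrays.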

How the data were processed

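RNA of 1 E47ER and 1 bHLHER sample, grouped by their titles, was read on 1-colour arrays, and the number of arrays limits the precision. The authors deposited a linear intensity for each of 20289 probes per array. Its scaling, background correction and detection calls are not given in the labels or headers used here. The 2 array medians differed by 0.418%, so intensities were used as deposited. Values that were missing (119 and 125 probes on the E47ER and bHLHER arrays) or at or below 0 (45 and 84) gave no ratio. GEO's platform annotation named 10349 probes, each with 1 gene, and 9940 were unnamed here. Symbols were updated by gene ID through RefSeq on GRCm38.p6, where all 10349 matched. A gene with several probes was read from the brightest.

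Log2 ratios (E47ER over bHLHER) were taken with pandas 2.3.3 and numpy 2.4.6 in Python 3.11.15. Each array's median was the floor, a log2 ratio of 1 the size threshold, and a gene above 1 floor only received a bound against the higher of the other floor and its own value there. Genes below both floors received no fold. All members are named. Of the pathway lists, genes past the threshold, 18 genes set by name and the brightest gene of lists with none past it are named; others, such as Irgm1, Tgtp1 and Oasl2, were chosen after their values were seen. Members and lists were chosen with earlier results of these data known. Alternatives were quantile and loess normalization (limma 3.58.1, R 4.3.3), 75th percentile scaling, centring on pan-leukocyte genes, the 25th or 75th percentile or nothing as the floor, the mean over probes, a pseudocount and a threshold of 1.5. Some genes of the lists are not reported here. The code was tested on simulated data, with changes planted in genes measured on both arrays. The noise there was set by hand, so the precision of the real values was not tested.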

Additional observations from a re-analysis of the deposited data

How the results depend on the processing

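No paired analysis was possible because only 1 array was made per arm, and no replicate could be left out. In 34 genes with 2 probes measured on both arrays, the log2 ratios of the pair differed by a median of 0.236. The largest difference was 3.83, and 2 pairs differed by at least 1. This spread between probes is the only one measured, and it holds no variation between cultures. Each antiviral member analysed had 1 probe, so none had such a check. Isg20 stayed at least 2-fold higher with E47ER under the 9 alternatives in which it was measured, with log2 ratios from 1.02 to 1.53. Gbp3 fell short with the centring (0.67) and the threshold of 1.5, as did the bound of Usp18 (1.92- and 2.69-fold). With a floor at the 75th percentile no member was above it on either array.

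The number of members called higher, 2 as reported, was 1 with the centring or the threshold of 1.5, 0 with the floor at the 75th percentile and 5 with no floor, where dim values enter. Members above the floor on both arrays numbered 5 (25th percentile), 0 (75th percentile) or 9 (no floor). Their median log2 ratio, 1.33 as reported, was 0.85 with the centring and 1.01 with no floor. Pathway genes called higher, 6 as reported, were 3 with the centring, the floor at the 75th percentile or the threshold of 1.5, and 15 with no floor. Over all genes the 128 higher and 45 lower calls became 57 and 468 with the centring, 204 and 77 with the 25th percentile as the floor, 43 and 16 with the 75th percentile, 545 and 348 without a floor, and 56 and 6 with the threshold of 1.5. The centring moves the median of all measured genes by -0.48, so directions are relative to it. Quantile normalization, loess, 75th percentile scaling, the mean over probes and the pseudocount left each of these counts within 1.5 times.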

Other observations

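Genes that share the joined response element run of Isg15, Gbp3 and Oas1a were looked up among all genes. Of the 4527 genes that were measured on both arrays and had a RefSeq promoter window, 8 held at least 3 GAAA repeats each 2 bases apart. Gbp3 was the 1 of these 8 at least 2-fold higher with E47ER, beside 109 of 4519 genes without the run (2.41%). The run was taken from members that include Gbp3, so the call of Gbp3 says nothing about the run. Irgm1 and Trim21, both interferon-stimulated, had log2 ratios of 0.87 and 0.49. Socs1 had -0.28 and Oas1c -0.02, so the ratios of these genes lay on both sides of 0 (4 of 8 above it). For the shorter core of 2 such repeats, 5 of 186 genes with a match were at least 2-fold higher (2.69%), beside 105 of 4341 without (2.42%). The medians were 0.06 and -0.05.

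The E-box CAGCTG was in the promoter windows of 756 measured genes, of which 33 (4.37%) were called higher with E47ER and 2 (0.265%) lower. Of the 3771 genes without it, 77 (2.04%) were higher and 31 (0.822%) lower. For CAGGTG, the E-box in the windows of Isg20 and Rsad2, the shares higher were 3.43% of 903 genes with it and 2.18% of 3624 without. The shares lower were 0.775% and 0.717%. For the core of the gamma-activated site, which STAT proteins are known to bind (TTC and GAA with 3 bases between), 18 of 371 genes with a match were higher (4.85%) and 6 lower (1.62%), beside 2.21% and 0.65% without. It matched in windows of Isg20, Ifit2 and Oas1a. For the E-box with any middle letters, 2.91% of 3055 genes with it were higher and 0.753% lower, beside 1.43% and 0.679% of 1472 without. The part of either sequence in these shares was not tested. Among antiviral members CAGCTG was found in Ifit3 alone, which was below the median on both arrays. These shares are descriptions of 1 array per arm and were chosen after the data were seen. Genes with several annotated starts have more windows in which to match.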
